A study of Mus musculus with 6 samples.

Results

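The miR-99/100, miR-125 and miR-10 microRNAs (miRNAs) are short RNAs that pair with target mRNAs mainly through the bases of their seed and reduce what those mRNAs produce. They were taken as the 7 reporters (array probes) named mmu-miR-99a, mmu-miR-99b, mmu-miR-100, mmu-miR-125a-5p, mmu-miR-125b-5p, mmu-miR-10a and mmu-miR-10b, out of 1078 mouse reporters on each array. The prefix mmu, for mouse, is left out from here on. The names are those of an older miRBase release, in which the more abundant arm of a hairpin often carries no suffix and an asterisk marks the other arm. The choice of reporters used no measured value, but it was made with earlier results of these data known.

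The arrays measured total RNA from cultured vascular smooth muscle cells (VSMCs), which give the artery wall its ability to contract. Per the labels, the donors were C57BL/6 mice of 8 weeks, the tissue was abdominal aorta, and the cells were harvested after several passages and carried no genetic modification that the labels name. The control group (n = 3 cultures) was untreated, and the other group (n = 3 cultures) received TNF-α, an inflammatory cytokine. The comparison asks which miRNAs differ between untreated and TNF-α-treated cells. The sources used here do not give the dose of TNF-α, the duration or the number of mice behind each culture.

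The miR-99/100 miRNAs are best known as repressors of the kinase mTOR, a driver of growth and protein synthesis. The miR-125 miRNAs are the mammalian relatives of the worm timing miRNA lin-4 and repress Lin28a, an RNA-binding protein of immature cells, and miR-125b has been studied in VSMCs as a repressor of the histone methyltransferase Suv39h1. The miR-10 miRNAs lie inside the Hox gene clusters, which lay out the body axis. miR-99, miR-100 and miR-10 are often placed in a single family because their sequences are alike.

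The mature sequences show which reporters are near copies and which share a seed, so they are given before the values. They come from RefSeq on GRCm38.p6, where all 7 names matched an entry, and capitals mark the seed, bases 2 to 8 from the 5′ end. The miR-99/100 miRNAs share the seed ACCCGUA, the miR-125 miRNAs CCCUGAG and the miR-10 miRNAs ACCCUGU.
miR-99a: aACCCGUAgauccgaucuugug
miR-99b: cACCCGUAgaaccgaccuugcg
miR-100: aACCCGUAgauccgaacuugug
miR-125a-5p: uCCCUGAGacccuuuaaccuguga
miR-125b-5p: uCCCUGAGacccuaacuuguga
miR-10a: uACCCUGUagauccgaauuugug
miR-10b: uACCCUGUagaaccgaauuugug

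miR-99a and miR-100 differ at 1 base, U16A, counted from the 5′ end with the base of miR-99a first. miR-10a and miR-10b also differ at 1 base, U12A. miR-99b differs from miR-99a at 4 bases (A1C, U11A, U16C and U21C), and miR-125a-5p lies 3 single-base edits from miR-125b-5p. miR-100 and miR-10a lie 3 edits apart despite different seeds. Densities of miR-99a and miR-100, and those of miR-10a and miR-10b, are uncertain as separate quantities, because a probe can take up part of the signal of a 1-base neighbour and how far these probes do so was not tested.

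The hairpins fall into 3 clusters that pair a miR-99/100 miRNA with a miR-125 miRNA, and 2 Hox clusters. Mir99b (mature miRNA at chr17:17830194-17830215) and Mir125a (chr17:17830817-17830840) are 554 bases apart, within the span of the protein-coding gene Spaca6. Mir100 (chr9:41531437-41531458) and Mir125b-1 (chr9:41581940-41581961) are 50421 bases apart, within the span of the noncoding gene Mir100hg. Mir99a (chr16:77598940-77598961) and Mir125b-2 (chr16:77646279-77646300) are 47272 bases apart and overlap no other gene of the table used. Both Mir125b hairpins give the same mature miRNA, so 1 reporter reads the products of both. Mir10a (chr11:96317186-96317208) lies within the span of Hoxb3, and Mir10b (chr2:74726074-74726096) within the spans of Hoxd3 and Hoxd4. All hairpins are on the plus strand. The table gives gene spans only, so exon or intron is not stated.

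The values are median densities, the brightness of a reporter in arbitrary units with background still included. The background peak, the commonest density of an array, was 66.0 to 76.1 in controls and 81.0 to 90.6 with TNF-α, and the background limit (the peak plus 3 SD of the values below it) was 88.3 to 102 and 116 to 127. In controls 306 to 337 reporters exceeded the limit, and with TNF-α 241 to 252 did. On these measures the groups did not overlap, so an effect of TNF-α and a technical difference of the arrays cannot be told apart. Both VSMC markers, miR-143 and miR-145, were above the limit on all 6 arrays. None of the 5 epithelial markers was above it on any array, and of the 6 blood cell markers 5 were above it on none. Of other cell types, 1 of 5 striated muscle markers (miR-206), 1 of 2 endothelial markers (miR-126-3p) and 1 of 3 nerve markers (miR-128) were above it on all 6 arrays, and 0 of 4 liver and gut markers were. The summed density of the markers above the peak was lower with TNF-α for striated muscle (224 to 236 in controls, 114 to 160 with TNF-α), for nerve (204 to 235 and 166 to 190) and for liver and gut (136 to 181 and 44.2 to 57.0). The sum was also lower for blood cells (27.7 to 41.0 and 0 to 20.5). Its ranges overlapped for endothelium (46.8 to 81.2 and 35.6 to 54.3), epithelium (0 to 31.5 and 0 to 13.7) and vascular smooth muscle (7567 to 9398 and 8617 to 10202). The peak subtracted in these sums was itself higher on the TNF-α arrays. Among single markers, miR-206 (adjusted p = 0.00339 in limma) and 3 of the liver and gut markers were called lower. The nerve marker miR-128 had mean densities of 272 in controls and 262 with TNF-α and changed by 0.02 (adjusted p = 0.886 in limma). The part of other cells in the results was not tested.

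The 7 reporters differed widely in brightness, and all were above the background limit on all 6 arrays. miR-125b-5p ranked 3 or 4 in brightness among all 1078 reporters on every array, at 226 to 307 times the limit. miR-99b and miR-125a-5p ranked between 41 and 52, and miR-99a and miR-100 between 89 and 107. The miR-10 pair ranked between 158 and 185, at 1.36 to 1.94 times the limit. Probes differ in how well they bind, so these ranks do not order the miRNAs by abundance. The plot of densities by array shows these levels.

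**Figure D1:**
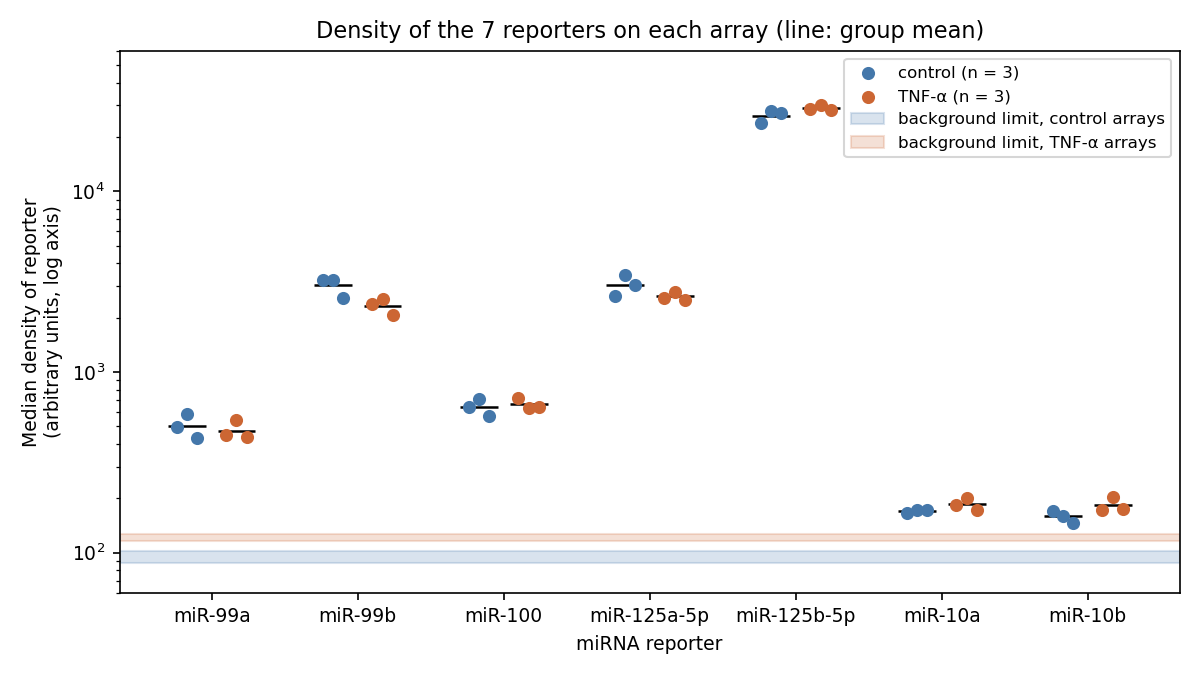
Median density (arbitrary units, log axis) of each of the 7 reporters on the 3 control and 3 TNF-α arrays, with lines at the group means and bands over the range of the background limit in each group. The groups do not overlap for miR-99b (lower with TNF-α) or for miR-125b-5p and miR-10b (higher), and miR-10a and miR-10b sit just above the bands. With the background peak subtracted, the groups of miR-10b overlap.

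With TNF-α, miR-99b fell 1.19-fold and the other 6 reporters did not pass the test. The count of 1 of 7 compares with 22.7% of all 642 tested reporters called in either direction and 9.81% called lower (12.9% were called higher). Among the 209 reporters above the limit on all arrays, as all 7 members were, 34.0% were called, 15.3% lower and 18.7% higher. The share of members called was therefore not above the background. In RNA from whole cultures, fewer cells with a miRNA and less of it per cell cannot be told apart. All p-values are from limma's moderated test with Benjamini-Hochberg adjustment over the 642 reporters, on quantile-normalized log2 densities after normexp background correction with 50 added. The offset pulls fold changes toward 1. Changes are given on the log2 scale as TNF-α minus control. The median change was 0.05 for the 7 members and 0.01 for all tested reporters.

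Over the whole array 83 reporters were called higher and 63 lower, and this balance moved with the scaling. It was 163 and 41 with no normalization, 126 and 60 with median scaling and 39 and 81 in the authors' processed table. The filter moved it too, since a reporter could pass it through the arrays of a single group. When all 6 arrays had to pass, 50 were called higher and 58 lower of 339 tested. The median change of all tested reporters was 0.14 with no normalization and -0.12 in that table, so the scaling is given beside each member whose direction it turns.

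miR-99b had densities of 3229, 3246 and 2585 on the control arrays and 2371, 2547 and 2074 on the TNF-α arrays. Every TNF-α array lay below every control array, although the highest TNF-α value was close to the lowest control value. The means were 3020 ± 377 in controls and 2330 ± 239 with TNF-α (SD, n = 3). The file gives each density an SD of its own, 2.41% to 8.53% of the density for this reporter, and does not say over what it was taken. On the quantile scale the change was -0.26 ± 0.08 (SE; 95% interval -0.43 to -0.08; adjusted p = 0.0432 in limma). Before normalization it was -0.37 (adjusted p = 0.0299), with median scaling -0.43 (adjusted p = 0.00733) and with cyclic loess -0.28 (adjusted p = 0.0213).

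The authors' processed table put the fall of miR-99b more clearly apart. Its intensities were 3160, 3131 and 2802 on the control arrays and 2287, 2463 and 2120 on the TNF-α arrays, a change of -0.40 (adjusted p = 0.00922 in limma over the 285 reporters tested there). The call of miR-99b was narrow. The settings that lost it included an offset of 8 (-0.26, adjusted p = 0.113) and no filter (-0.26, adjusted p = 0.0551). Leaving out each of the 6 arrays in turn gave -0.29 to -0.23 and lost the call every time, with adjusted p of 0.0706 to 0.108 in limma. The reporter was lower with TNF-α under all 19 alternatives and called in 10 of them. Changing the filter or the variance model, or adding a replicate block, cannot move the estimate, so these alternatives bear on the call only.

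miR-100, which shares the seed of miR-99b, lay the other way without passing the test. Its densities were 641, 707 and 568 in controls and 717, 632 and 638 with TNF-α, so the groups overlapped. The change was 0.18 ± 0.08 (SE; 95% interval -0.01 to 0.37; adjusted p = 0.154 in limma). It was 0.05 with no normalization and 0.02 in the processed table. With median scaling it was -0.0035, where the sign turned. Without TNF-α replicate 2 it was called higher (0.29, adjusted p = 0.0411), the only setting that called any member other than miR-99b.

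miR-99a, a 1-base neighbour of miR-100, had densities of 495, 583 and 431 in controls and 446, 540.3 and 438 with TNF-α. The groups overlapped, and control replicate 2 and TNF-α replicate 2 were the highest of their groups. The change was 0.07 ± 0.08 (SE; 95% interval -0.11 to 0.24; adjusted p = 0.578 in limma). Its sign depended on the scaling: median scaling and the processed table each gave -0.14, and omitting normalization gave -0.09.

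miR-125a-5p, encoded beside miR-99b, had densities of 2637, 3427 and 3039 in controls and 2584, 2769 and 2519 with TNF-α. Control replicate 1 lay within the range of the TNF-α arrays and the other control arrays lay above it. The change was -0.09 ± 0.14 (SE; 95% interval -0.40 to 0.23; adjusted p = 0.697 in limma). The estimate was -0.20 with no normalization, -0.22 in the processed table and -0.26 with median scaling, and none of these was called. Without control replicate 1 it was -0.27 and without control replicate 3 it was 0.03, so single control arrays moved the value widely.

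miR-125b-5p had densities of 23781, 27723 and 27099 in controls and 28501, 30045 and 28201 with TNF-α. Each TNF-α value exceeded each control value. The groups also failed to overlap on the background-corrected log2 values before normalization, as they did, in either direction, for 48.0% of tested reporters. The means were 26201 ± 2119 and 28916 ± 989 (SD, n = 3). Quantile normalization set the change to 0.00 (95% interval -0.19 to 0.19; adjusted p = 1 in limma), because the reporter held rank 4 on 1 array and rank 3 on 2 arrays of each group. On that scale a reporter so bright can only exchange places with its neighbours in rank, so the value does not measure its density. With no normalization the change was 0.14 ± 0.10 (SE; 95% interval -0.07 to 0.36; adjusted p = 0.257) and the processed table gave 0.14 (adjusted p = 0.242). It was called in 0 of the 19 alternatives, with changes from -0.07 to 0.14. All of these except no normalization, median scaling, cyclic loess and the processed table kept quantile normalization. The count therefore says little about its density.

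Neither miR-10 reporter passed the test. miR-10a had densities of 165, 173 and 172 in controls and 183, 201 and 173 with TNF-α, and changed by 0.05 ± 0.08 (SE; 95% interval -0.14 to 0.23; adjusted p = 0.704 in limma). miR-10b had densities of 171, 160.0 and 146 in controls and 172, 205 and 174 with TNF-α, and changed by 0.12 ± 0.10 (SE; 95% interval -0.11 to 0.34; adjusted p = 0.442 in limma). For both, TNF-α replicate 2 was the highest array, and for miR-10b the densities of the groups barely failed to overlap (171 and 172 at the nearest) and overlapped after quantile normalization. The background peak was itself higher on the TNF-α arrays. Above the peak, miR-10a stood at 93.0, 97.3 and 106 in controls and 92.5, 112 and 91.6 with TNF-α, so its groups overlapped. Likewise miR-10b stood at 98.4, 83.9 and 80.1 in controls and 81.1, 115 and 92.8 with TNF-α, which overlapped too. miR-10a was -0.04 in the processed table, and the file's own SD was 8.09% to 17.3% of the density over both reporters.

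**Figure D2:**
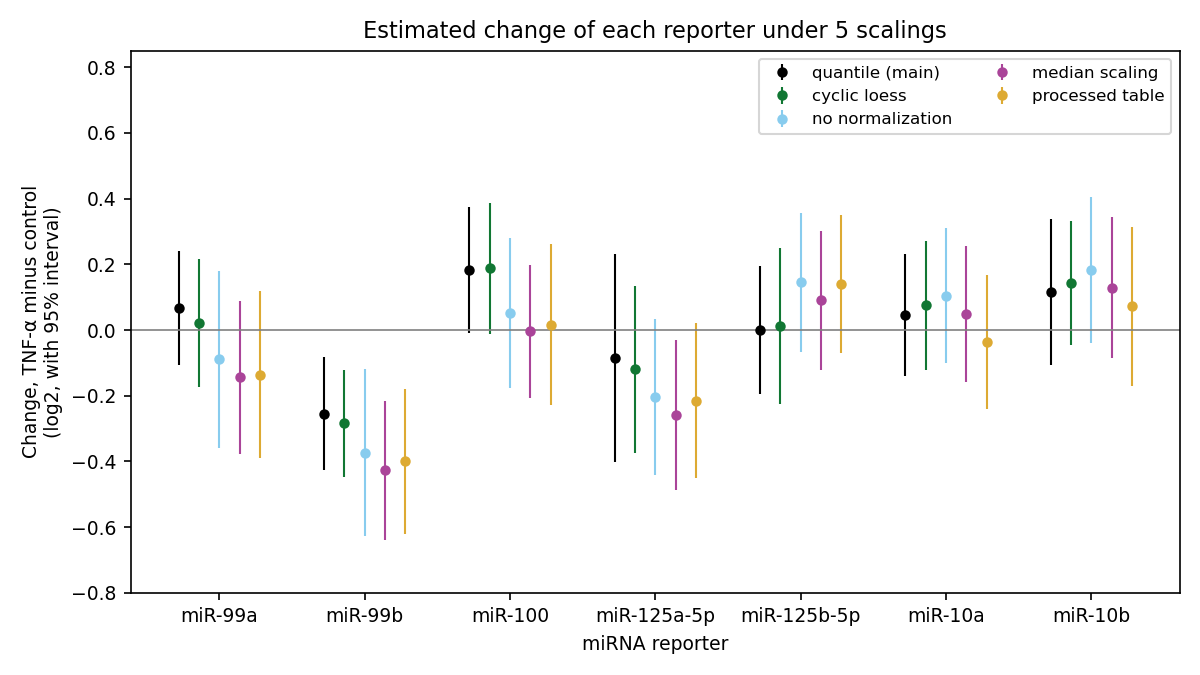
Change of each reporter with TNF-α (log2, TNF-α minus control) with its 95% interval under quantile normalization, cyclic loess, median scaling, no normalization and in the processed table of the authors. The interval of miR-99b stays below 0 under all 5, whereas miR-99a is positive with quantile normalization (0.07) and negative with median scaling (-0.14).

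After quantile normalization miR-99b was the only member of 7 whose groups did not overlap, against 40.0% of all tested reporters and 48.3% of those above the limit on all arrays. By seed, the median change was 0.07 for the 3 miR-99/100 miRNAs, -0.04 for the 2 miR-125 miRNAs and 0.08 for the 2 miR-10 miRNAs. The miR-125 median takes in the change of 0.00 that quantile normalization set for miR-125b-5p, which does not measure its density. Without normalization the medians by seed were -0.09, -0.03 and 0.14, so the order of the subgroups was not the same under both.

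Changes before normalization varied with brightness over the whole array, and this was set beside each member by the median change of the other tested reporters within 1 log2 unit of its level. This measure was added after seeing the data. For miR-125b-5p the median of 7 such reporters was 0.13, against its own 0.14. For miR-99b the median of 39 reporters was -0.12 against its own -0.37, and 7 of the 39 were as low or lower. For miR-125a-5p it was -0.09 (40 reporters) against -0.20.

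miR-100 lay above its neighbours in brightness, at 0.05 against a median of -0.17 over 48 reporters, of which 13 were as high or higher. miR-99a was at -0.09 against -0.15 over 58. miR-10a was at 0.10 against 0.11 over 310 reporters, and miR-10b at 0.18 against 0.13 over 374. The change of miR-125b-5p and of the miR-10 pair was thus close to the median of reporters of like brightness. For miR-125b-5p these were only 7 reporters, with changes from -0.40 (miR-3960) to 0.50 (miR-709). For the miR-10 pair many of them were not above the background limit on all arrays. The part of background in their median was not tested.

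**Figure D3:**
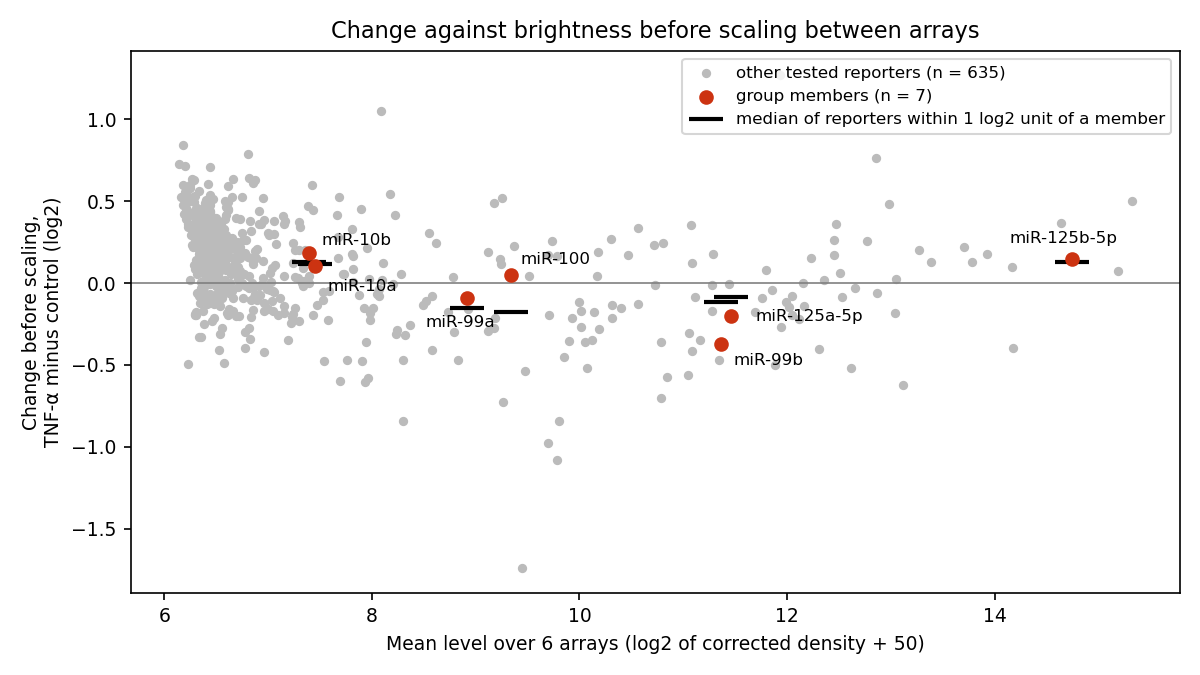
Change with TNF-α before scaling between arrays (log2) against mean level (log2 of corrected density plus 50) for 635 other tested reporters (grey) and the 7 members (red), with bars at the median of the reporters within 1 log2 unit of a member. The median is -0.17 at the level of miR-100 and 0.13 at the levels of miR-10b and miR-125b-5p; miR-99b (-0.37) lies below its bar.

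Differences between 2 reporters on the same array were compared next, because a factor that scales a whole array cancels in them. A total of 8 pairs were set: the 3 pairs of cluster mates and 5 pairs of paralogues. Each was tested with a two-sided exact permutation test over the 6 arrays, whose smallest possible p is 0.1. In 3 of the 8 pairs the groups did not overlap, against 55.9% of all 21736 pairs of reporters above the limit on all arrays, so this was not more than in other pairs.

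miR-99b stood 5.06-fold, 4.62-fold and 4.52-fold above miR-100 in signal on the control arrays and 3.33-fold, 4.05-fold and 3.24-fold on the TNF-α arrays. All 3 TNF-α arrays thus had the smaller ratio. These ratios serve only to compare arrays, since the probes differ. The log2 difference moved by -0.42 ± 0.11 (SE, n = 3 per group; exact permutation p = 0.1, adjusted p = 0.267 over the 8 pairs) and was -0.52 to -0.36 under all 13 alternatives. Of these alternatives, permuting within replicate numbers leaves the difference unchanged by construction. miR-99a against miR-99b moved by 0.28 ± 0.09 (exact permutation p = 0.1, adjusted p = 0.267), also without overlap.

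miR-125a-5p against miR-125b-5p, the pair with the seed CCCUGAG, also separated the groups. miR-125b-5p was 9.03-fold, 8.10-fold and 8.91-fold above miR-125a-5p on the control arrays and 11.1-fold, 10.9-fold and 11.2-fold on the TNF-α arrays. The log2 difference of miR-125a-5p minus miR-125b-5p moved by -0.35 ± 0.05 (SE; exact permutation p = 0.1, adjusted p = 0.267). With quantile normalization it was -0.09, which is the change of miR-125a-5p alone, since that scale set the change of miR-125b-5p to 0. It was -0.13 with cyclic loess, which adjusts for brightness. The medians of reporters of like brightness were -0.09 for miR-125a-5p and 0.13 for miR-125b-5p. The part of brightness in the separation of this pair was not tested.

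Cluster mates showed no separation of the groups. miR-99b minus miR-125a-5p, from hairpins 554 bases apart, was 0.29, -0.08 and -0.23 on the control arrays and -0.12, -0.12 and -0.28 on the TNF-α arrays. The difference moved by -0.17 ± 0.16 (SE; exact permutation p = 0.4, adjusted p = 0.457), and control replicate 1 alone lay far above the rest. miR-99a minus miR-125b-5p moved by -0.23 ± 0.14 (exact permutation p = 0.2, adjusted p = 0.4) and miR-100 minus miR-125b-5p by -0.09 ± 0.13 (exact permutation p = 0.4, adjusted p = 0.457). Since 2 hairpins feed the miR-125b-5p reporter, these do not isolate either cluster.

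The 1-base neighbours did not part either. miR-99a minus miR-100 moved by -0.14 ± 0.14 (SE; exact permutation p = 0.4, adjusted p = 0.457) and miR-10a minus miR-10b by -0.08 ± 0.09 (exact permutation p = 0.5, adjusted p = 0.5). In both pairs the TNF-α values overlapped the control values. With 3 arrays a group these tests do not show that the paralogues changed alike.

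**Figure D4:**
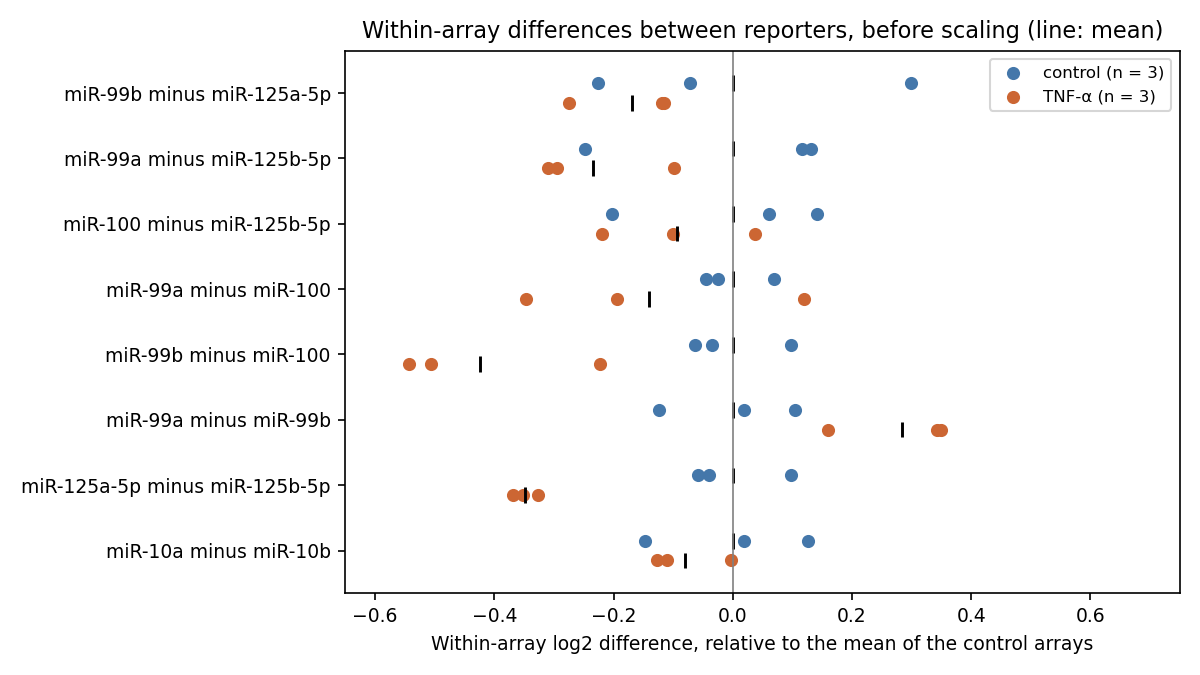
Log2 difference between 2 reporters on the same array for 8 pairs, before scaling and relative to the mean of the control arrays, with 3 control and 3 TNF-α arrays and lines at the means. The groups are separate for miR-99b minus miR-100 (mean -0.42), miR-99a minus miR-99b (0.28) and miR-125a-5p minus miR-125b-5p (-0.35), and overlap for the other 5.

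The opposite arms of the same hairpins were dim. Of 8 such reporters only miR-125a-3p was above the limit on all 6 arrays and 4 were above it on none; 5 were tested, and 0 were called in either direction by limma (0 at an unadjusted p under 0.05). miR-125a-3p had densities of 163, 187 and 160 in controls and 183, 179 and 156 with TNF-α, and changed by -0.04 ± 0.07 (SE; adjusted p = 0.695 in limma). miR-10b* was above the limit only on control replicate 1 (152, against 73.6 and 69.2 on the other controls). For miR-99b, the called member, the opposite arm miR-99b* was above the limit on no array and was not tested, so it gives no second reading of that hairpin.

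miR-351 was the only other reporter on the arrays with a seed of the group, that of miR-125. It had densities of 157, 145 and 119 in controls and 179, 193 and 178 with TNF-α, without overlap. These are as dim as the miR-10 reporters, and the background peak was higher on the TNF-α arrays. Above the peak it stood at 85.1, 68.5 and 52.5 in controls and 88.7, 103 and 97.1 with TNF-α, so the groups barely failed to overlap. After quantile normalization they did not overlap either, against 40.0% of all tested reporters. It rose by 0.32 ± 0.09 (SE; 95% interval 0.11 to 0.53; adjusted p = 0.0412 in limma), while miR-125a-5p and miR-125b-5p did not pass. Whether its change differed from theirs was not tested. It was higher under all 19 alternatives (0.21 to 0.44) and called in 12. Some of these alternatives cannot move the estimate, as given for miR-99b. The settings that lost the call included an offset of 8, no filter and leaving out control replicate 2 or 3 or TNF-α replicate 2 or 3 (0.26 to 0.31, adjusted p = 0.0930 to 0.116 in limma).

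Among the other miRNAs of the Hox clusters 4 of 7 reporters were tested and 0 rose or fell in limma (0 at an unadjusted p under 0.05). Only miR-615-3p was above the limit on all arrays, at 219.5, 238 and 188 in controls and 261, 260.4 and 209.7 with TNF-α, with a change of 0.15 ± 0.09 (adjusted p = 0.266). miR-196a and miR-196b, which mark the rearward part of the Hox clusters, were above the limit on no array. Of the other arms of their hairpins, miR-196b* was above it on all 3 control arrays and 1 TNF-α array (change -0.08, adjusted p = 0.647 in limma), and miR-196a-1* on 1 control array.

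Over the 6 arrays, the reporters most like a member on the quantile scale were sought among the 202 others above the limit on all arrays, as a description only. The highest Pearson r was 0.95 for miR-99b with miR-466h-3p and 0.98 for miR-100 with miR-3473b. The nearest was miR-145 (0.91) for miR-99a, miR-140* (0.90) for miR-125a-5p, miR-128 (0.89) for miR-10a and miR-145 (0.87) for miR-10b. An r above 0.9 was reached by 14 of the 202 for miR-99b, 3 for miR-100 and 1 for miR-99a. No likeness is given for miR-125b-5p, which takes only the values of ranks 3 and 4 on this scale. Among the other members miR-99b and miR-100 ran opposite (r = -0.82). All these values rest on 6 arrays of 2 groups that share their group difference.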

How the data were processed

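Total RNA of each culture was tailed, tagged and stained with Cy5 and read on 1-colour arrays, per the labels' protocols. The authors deposited 1 median density and 1 SD per reporter and array, which are linear intensities per the file headers, with background not subtracted. They also deposited a processed intensity table, with medians of 10.4 to 11.9 on control and 8.39 to 12.0 on TNF-α arrays. It is linear and not centred, and how it was scaled between arrays stays unknown. The scanner and its software are not given in the labels or headers. Groups came from the treatment labels. The labels call 2 of the TNF-α cultures the same replicate number, so cultures were numbered in accession order. No 2 arrays held identical values.

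Densities were corrected with normexp (offset 50), taken to log2 and quantile normalized in limma 3.58.1 (R 4.3.3). Reporters reaching a corrected density of 32 on 3 arrays were tested (642 of 1078) with group as the only term, at an adjusted p of 0.05, two-sided. The limma alternatives were other scalings, offsets of 8 and 128, other filters and background corrections, the processed table, another variance model, the replicate block and each array left out. The comparison with reporters of like brightness was added after seeing the data. Only the limma test on quantile-normalized densities was tried on simulated data, with changes larger than those of the members. The within-array tests and the comparison by brightness were not. Members, lists, pairs and alternatives were chosen with earlier results of these data known. All 7 members, the opposite arms, same-seed reporters, other Hox cluster miRNAs and the reporters most correlated with a member were named by rule, the last not for miR-125b-5p. Per the series' design text the cultures were grown separately. With 3 arrays a group, their number limits the precision. The processed table was tested as log2 of the value plus 32.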

Additional observations from a re-analysis of the deposited data

How the results depend on the processing

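With each of the 6 arrays left out in turn, the number of reporters called fell to between 70 and 91 of 500 to 626 tested, from 146, and the number of members called lay between 0 and 1; without TNF-α replicate 2 that member was miR-100. With the filter at 100, 77 of 189 tested were called. The number of members called was 0 with an offset of 8, with no filter and with the replicate block, and 1 in the other 10 settings that kept all arrays, miR-99b each time. With the replicate block, 103 reporters were called, miR-99b was -0.26 (adjusted p = 0.0741 in limma) and miR-351 0.32 (adjusted p = 0.0981). Same-numbered arrays deviated together with correlations of 0.04, 0.02 and 0.15, so the numbers were not taken to pair the cultures. A paired exact permutation within numbers gave p of 0.25 or more for all 8 within-array differences, 0.25 being the smallest it allows. Members that did not pass turned sign as follows: miR-99a without normalization (-0.089), in the processed table (-0.14) and after median scaling (-0.14), miR-100 after median scaling (-0.0035), miR-10a in the processed table (-0.037), and miR-125a-5p without control replicate 3 (0.026, against -0.27 without control replicate 1). Within-array differences against miR-125b-5p moved by more than their SD under the methods that rescale by brightness. With quantile normalization they were 0.066 for miR-99a, 0.18 for miR-100 and -0.085 for miR-125a-5p. These equal the changes of those reporters alone, since that scale set the change of miR-125b-5p to 0. With cyclic loess the differences were 0.0092, 0.18 and -0.13. The cause of these changes was not tested. Signal over background limits the miR-10 reporters most.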

Other observations

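The opposite arms miR-99a* and miR-99b* were below the background limit on every array, yet their place relative to the background peak differed between the groups. miR-99a* had densities of 78.1, 85.3 and 73.6 on the control arrays and 61.4, 63.8 and 56.6 on the TNF-α arrays. Set against the background peak of its array it stood at 5.85, 9.10 and 7.65 in controls and at -29.3, -25.4 and -24.4 with TNF-α. miR-99b* stood at 17.4, 8.33 and 12.2 in controls and at -8.49, -12.8 and -15.5 with TNF-α. Both thus lay above the peak on all 3 control arrays and below it on all 3 TNF-α arrays, while the peak itself was higher on the TNF-α arrays. The other 6 opposite arms did not do so. This change of side was seen in 42 of all 681 reporters above the limit on no array (6.17%), and these arms were singled out after their values were seen. Values below the peak are not levels of a miRNA, so no fold is given.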
